A study of Mus musculus with 3 samples.

Results

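Ngn3-TOMATO cells, the descendants of progenitors that expressed the transcription factor Neurogenin 3, were set against Ngn3-negative cells, epithelial cells that carried no reporter signal. The comparison used 2 of the 3 libraries of the series, 1 pooled library for each group, and 13484 genes out of 24357 gene symbols matched to the deposited transcripts. Both groups were sorted from the upper small intestine of male C57BL/6 mice that joined Neurogenin3 (Ngn3)-Cre with a ROSA26-LoxP-STOP-LoxP-tomato indicator allele, so both sorts shared 1 genotype. In both sorts, cells stained for CD45, a protein of blood cells, were left out. No treatment was given, and the age of the mice and the number of mice behind each pool are not stated in the labels. The tomato signal records that Cre was once active in a cell or its ancestor, so it marks a history and not the present level of Neurog3. RNA of individual samples was combined in equal amounts before polyadenylated RNA was sequenced without amplification of the RNA.

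Neurogenin 3 is a transcription factor of the basic helix-loop-helix kind that starts the enteroendocrine program in a brief window of a progenitor's life. Enteroendocrine cells are scattered among the other cells of the gut lining, sense nutrients and release peptide hormones or serotonin from granules. Their neighbours are absorptive enterocytes, mucus-secreting goblet cells, Paneth cells that release antimicrobial peptides, and chemosensory tuft cells, and all of these arise from stem cells in the crypts.

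The values are scaled FPKM: the authors' FPKM (sequenced fragments scaled by transcript length and by library size), summed over the transcripts of a gene and divided by 1 number common to both libraries, which leaves each ratio as deposited. A pair of values such as a against b gives Ngn3-TOMATO first and Ngn3-negative second. The log2 ratio is that of Ngn3-TOMATO over Ngn3-negative after 1 scaled FPKM was added to each value, and a gene was counted as higher or lower past 2-fold on that scale. The interval in parentheses is a 95% counting interval from the deposited limits, which reflects read numbers and the sharing of reads among transcripts, but no variation from mouse to mouse or sort to sort. With 1 library in each group there was no replicate, so no difference below was tested. The depth over the listed transcripts was 1380 Mb of read bases for Ngn3-TOMATO and 1030 Mb for Ngn3-negative, and 13176 and 12001 genes reached 1 scaled FPKM. A gene entered the comparison where either library reached 1 scaled FPKM, so a gene kept through 1 library alone had to differ, and the counts are descriptions.

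The marker genes followed the tomato label for endocrine cells. Chga and Chgb, which encode granins that pack hormone granules, stood at 8807 against 124 and 12059 against 192 scaled FPKM. Cck and Sst, the precursors of cholecystokinin and somatostatin, stood at 15921 against 183 and 18367 against 258 scaled FPKM. Each of these 4 genes was more than 60 times as abundant inside the lineage as outside it. Zg16, a lectin of goblet cell granules, stood at 89531 against 15712 scaled FPKM and was the most abundant gene kept in either library, with 8.43% against 1.75% of the summed gene values. The submitters describe the reporter-negative population as enterocytes, goblet cells and Paneth cells. In these libraries the enterocyte markers were higher there, such as Fabp2, a fatty acid binding protein (2185 against 11179 scaled FPKM), whereas the goblet marker Muc2 (7019.7 against 1409.9) and the Paneth marker Lyz1 (6954 against 1166) were higher in Ngn3-TOMATO. Neurog3 itself (transcript uc007fgu.1, chromosome 10, 62133090 to 62134763) stood at 23.9 against 13.8 scaled FPKM, a log2 ratio of 0.75 (0.54 to 0.97), so its transcript was found in both sorts and its difference was inside 2-fold. In bulk RNA, fewer cells of a type and less of its RNA per cell cannot be told apart.

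Across all 13484 genes, 9550 (70.8%) lay within 2-fold and the median log2 ratio was 0.04. Of all genes 19.2% (2594) were higher by 2-fold or more and 9.94% (1340) lower, which is the background for every count below. Past 4-fold these shares were 8.87% and 1.9%, and past 16-fold there were 236 higher genes and 27 lower ones. The counting interval lay wholly past 2-fold for 2068 of the higher and 978 of the lower genes. A value of 0 in Ngn3-negative lay behind 219 of the higher genes, and a value of 0 in Ngn3-TOMATO behind 69 of the lower ones. A listed 0 added almost no width to the interval. Such genes could thus count as wholly past 2-fold although a listed 0 gives no limit on the level. The share of 2-fold differences that were higher was 65.9% as deposited and 53.4% (2278 higher, 1991 lower) when both libraries were scaled to the same total, which shifts every log2 ratio down by 0.24.

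The size of the difference was unequal in the 2 directions among abundant genes. Of 1585 genes at 100 scaled FPKM or more in Ngn3-TOMATO and above 0 in Ngn3-negative, 88 were more than 20 times as abundant in Ngn3-TOMATO, 46 more than 50 times and 2 more than 100 times. Of 1729 genes at 100 or more in Ngn3-negative and above 0 in Ngn3-TOMATO, 112 were more than 4 times as abundant in Ngn3-negative, 11 more than 8 times and 1 more than 16 times. That gene was Clca4a, a chloride channel accessory protein of enterocytes at the villus tip (11.2 against 180.2 scaled FPKM). Among genes with a higher value of at least 1000 scaled FPKM, 30.2% were 2-fold higher and 30.9% were 2-fold lower, while among those between 1 and 10 scaled FPKM 31.1% were higher and 6.08% lower.

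**Figure D1:**
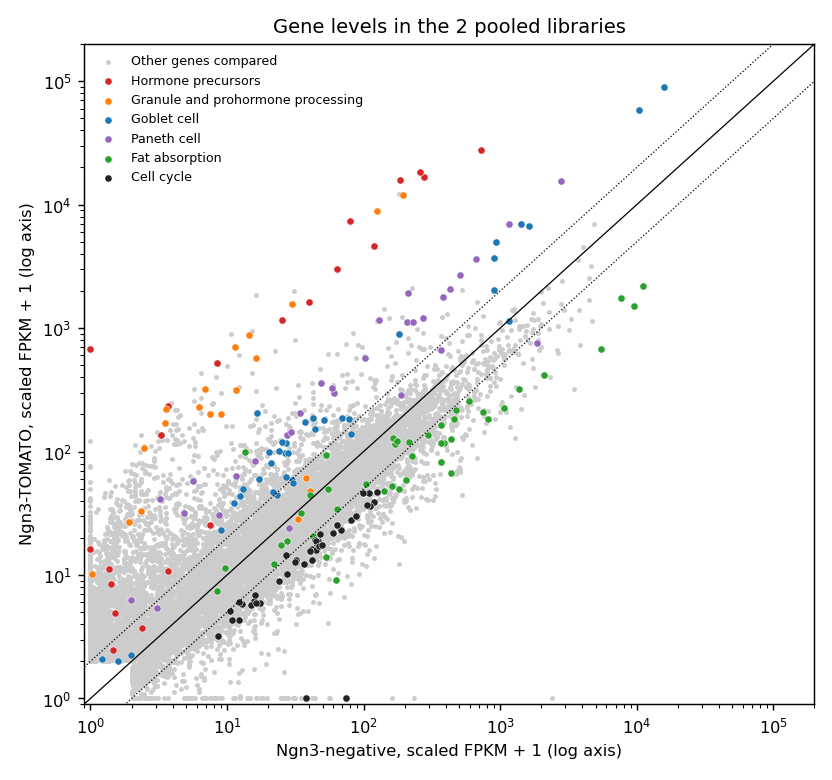
Each point is 1 of the 13484 genes, at its scaled FPKM plus 1 in Ngn3-negative (horizontal log axis) and Ngn3-TOMATO (vertical log axis); colours mark 6 gene lists, the solid line equality and the dotted lines 2-fold. Hormone and granule genes lie far above the line, goblet and Paneth genes in a band closer to it, and fat absorption and cell cycle genes mostly below it.

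Gene classes differed in the ratio of scaled FPKM. It was taken without a pseudocount over members that reached 10 scaled FPKM in either library and were above 0 in both. The middle 50% of the 14 hormone genes had ratios between 39.7 and 71.0, and of the 19 granule genes between 26.8 and 66.1. For 28 Paneth cell genes that range was 4.79 to 6.00, for 35 goblet cell genes 2.53 to 4.82, and for 21 tuft cell genes 1.86 to 2.14. The middle 50% of the 38 cell cycle genes lay between 0.337 and 0.392. The hormone and granule ranges overlapped, and the Paneth and goblet ranges overlapped at their edges. The ranges of the hormone, Paneth and tuft lists did not touch each other. Within the cell cycle, tuft and Paneth lists the middle members differed from each other by far less than these lists did. These members share 1 library of each kind, and the lists were chosen with earlier results of these data known.

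**Figure D2:**
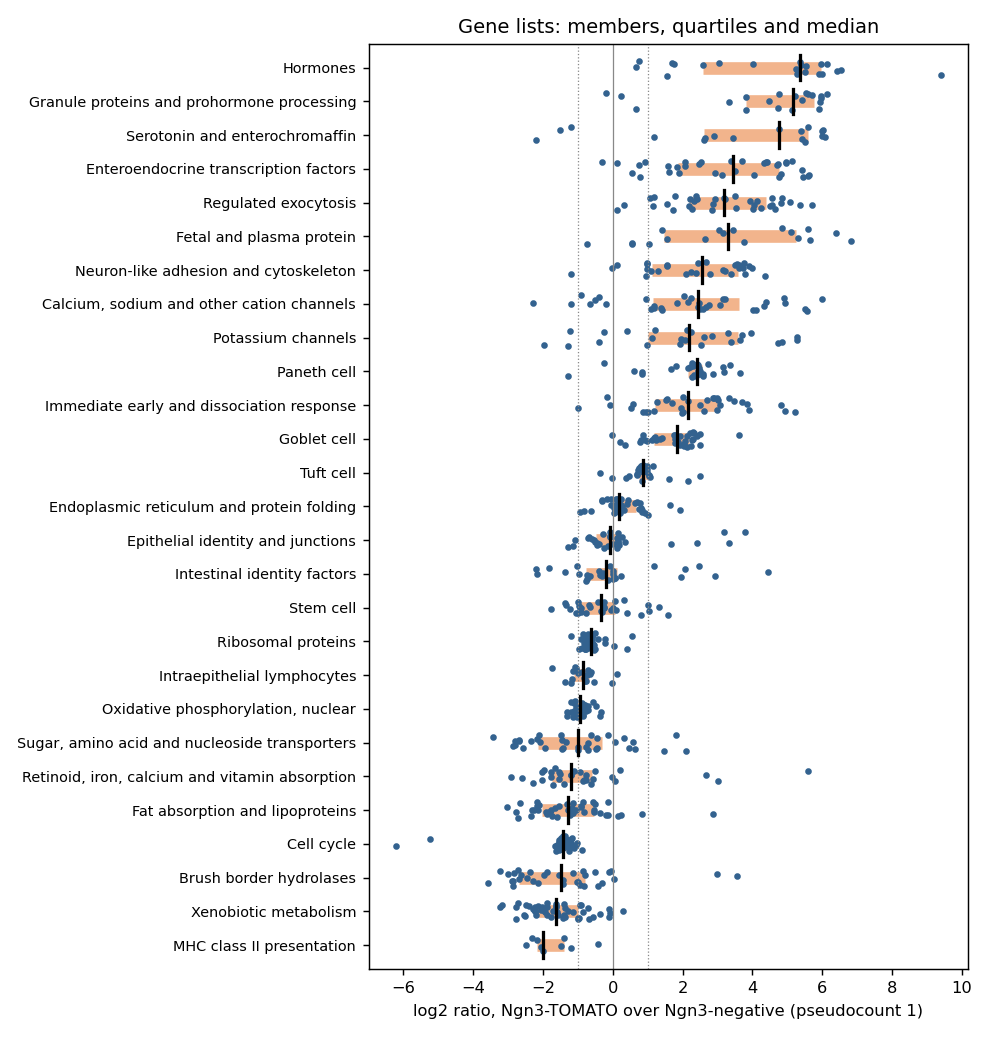
Each row is a gene list and each point 1 measured member, placed by its log2 ratio of Ngn3-TOMATO over Ngn3-negative with 1 added to each value; the bar spans the quartiles and the black line is the median. Hormone and granule lists have medians above 5, the Paneth, goblet and tuft lists have narrow quartiles between 0 and 3, and the cell cycle list is narrow and below -1, with 2 genes listed at 0 in Ngn3-TOMATO far to the left; the rightmost hormone gene, Gast, is listed at 0 in Ngn3-negative.

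Hormone genes were far higher in Ngn3-TOMATO. Of 30 genes on the list 21 were measured, 19 of them were past 2-fold higher and 0 lower, with a median log2 ratio of 5.36. Hormone transcripts made up 9.24% against 0.199% of the summed gene values. Gip, which encodes the incretin GIP (transcript uc007lba.1, chromosome 11, 96024545 to 96030828), was the most abundant hormone gene in both libraries, at 27922 against 727 scaled FPKM and a log2 ratio of 5.26 (5.22 to 5.30). Sct, the precursor of secretin, which makes the pancreas release bicarbonate, stood at 16613 against 274 scaled FPKM, a log2 ratio of 5.92 (5.83 to 6.00). Gip, Sst, Sct and Cck lay above every other hormone gene in Ngn3-TOMATO, the lowest of the 4 being Cck at 15921 scaled FPKM.

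Next in abundance came Ghrl, the precursor of ghrelin, at 7318 against 77.8 scaled FPKM and a log2 ratio of 6.54 (6.32 to 6.76). It was followed by hormones that are best known from other gut segments or cell types. Nts, the precursor of neurotensin, stood at 4616 against 119 scaled FPKM, and Gcg, whose product is cut to the glucagon-like peptides in the gut, at 2981 against 63.1. Pyy, the precursor of the satiety peptide PYY, stood at 1626 against 38.5 scaled FPKM, and Tac1, the precursor of substance P, at 1155 against 24.2. Gast, the gastrin precursor, reached 674 scaled FPKM in Ngn3-TOMATO with a listed 0 in the other library. The log2 ratios of Nts, Gcg, Pyy and Tac1 lay between 5.27 and 5.54, below that of Ghrl.

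Hormone genes at a lower level differed by as much. Iapp, which encodes amylin, a peptide best known from the beta cell of the pancreas, stood at 525 against 7.46 scaled FPKM, a log2 ratio of 5.96 (5.59 to 6.33). Cartpt, the precursor of the CART peptides, stood at 231 against 2.67 scaled FPKM, and Ucn3, which encodes urocortin 3, at 136 against 2.26. Ppy, the pancreatic polypeptide precursor, had 15.2 scaled FPKM in Ngn3-TOMATO and likewise a listed 0 outside the lineage. The smallest differences belonged to Npb (neuropeptide B, 2.75 against 1.38 scaled FPKM, log2 ratio 0.66), Gal (galanin, 1.46 against 0.474, log2 ratio 0.74), and Adm (adrenomedullin, 9.77 against 2.67, log2 ratio 1.55), all below 10 scaled FPKM.

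The sequence upstream of hormone genes is shown because these members stood apart together. RefSeq promoter windows of the GRCm38.p6 build, from 250 bases before to 50 bases after the start of a gene, were on hand for 19 of the 21 measured hormone genes, 16 of the 20 granule genes and 10551 of all compared genes. The windows were searched on both strands for 13 short sequences. These were CAGATG and the palindrome CAGCTG among E-boxes, the cyclic AMP response element TGACGTCA, the nuclear receptor element CAAAGTCCA, the caudal-type elements TTTATGG and also TTTATTG, the TATA box as TATAAA, the ETS core GGAA, the AP-1 element at full length ATGACTCAT, as its core TGACTCA and as the shorter GACTCA within both, the HNF1-like piece GTTAAT, and TTCAGCACC from the repressor element of neuronal genes. CAGATG, one form of the E-box that basic helix-loop-helix proteins bind, occurred in 8 of the 19 hormone windows (Cck, Sct, Gcg, Tac1, Iapp, Cartpt, Ucn3 and Pomc) and in 0 of the 16 granule windows, against 11.3% of all windows. CAGATG was also in 24.4% of xenobiotic metabolism windows and 21.7% of goblet cell windows. TATAAA occurred in 6 of the 19 hormone windows, or 31.6%, against 7.74% of all, and in 26.7% of xenobiotic metabolism, 26.1% of goblet cell and 20.6% of fat absorption windows. TGACGTCA, the full cyclic AMP response element, occurred in 2 of the 19 hormone windows (Sst and Cartpt) and in 3 of the 16 granule windows (Chgb, Scg2 and Pcsk1), against 3.21% of all. CAGCTG occurred in 4 hormone and 4 granule windows (14.9% of all), GGAA in 18 and 16 (95.6%), and GACTCA in 3 and 2 (12.6%). TGACTCA occurred in 1 and 2 (3.72%), GTTAAT in 2 and 0 (4.53%), TTTATTG in 0 and 1 (2.63%), and TTCAGCACC in 0 and 2 (0.36%). The remaining 3 were in 0 windows of both lists, with TTTATGG in 1.79% of all windows, CAAAGTCCA in 0.55% and ATGACTCAT in 0.133%. These are counts of letters in a window, chosen after an earlier look at the same windows, and say nothing of binding.

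The 250 bases before the start of Sst and of Cck are printed 5′ to 3′ on the strand of the gene, with the matched element in capitals. In Sst (chr16:23890845-23891094, minus strand) TGACGTCA begins 48 bases before the start, and in Cck (chr9:121495695-121495944, minus strand) CAGATG begins 30 bases before it. The capitals mark a different element in each, close to the start in both. In Sct, whose sequence is not printed, CAGATG begins 242 bases before the start.
Sst: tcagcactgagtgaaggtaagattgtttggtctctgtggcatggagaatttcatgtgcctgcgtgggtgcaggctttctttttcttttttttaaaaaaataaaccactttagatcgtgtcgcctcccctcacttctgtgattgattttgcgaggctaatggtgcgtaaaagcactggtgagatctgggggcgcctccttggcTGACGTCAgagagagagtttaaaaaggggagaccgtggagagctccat
Cck: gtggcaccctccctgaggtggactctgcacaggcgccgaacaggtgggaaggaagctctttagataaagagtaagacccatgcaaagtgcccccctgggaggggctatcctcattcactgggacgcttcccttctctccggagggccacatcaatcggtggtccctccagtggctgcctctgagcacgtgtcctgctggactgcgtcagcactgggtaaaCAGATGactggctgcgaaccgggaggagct

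Genes that store and mature hormones were nearly all higher. Of 20 granule and prohormone processing genes, all measured, 17 were at least 2-fold higher and 0 were lower, with a median log2 ratio of 5.17. Resp18, a protein of the regulated secretory pathway, stood at 701 against 10.3 scaled FPKM, and Scg2, which encodes secretogranin II, at 884 against 13.6. Cpe, the carboxypeptidase that trims basic residues from cleaved prohormones, stood at 1557 against 28.7 scaled FPKM, a log2 ratio of 5.71 (5.60 to 5.82). Of the convertases that make the cuts, Pcsk1 stood at 575 against 15.3 scaled FPKM and Pcsk2 at 9.19 against 0.0173. The inhibitor of the first of these, Pcsk1n, stood at 105 against 1.46 scaled FPKM. The 3 members inside 2-fold were proteases that work in most cells or outside this pathway: Cpd (59.6 against 37.0 scaled FPKM), Furin (46.7 against 39.4) and Pcsk4 (27.7 against 32.0).

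The machinery of regulated exocytosis was also higher, with 33 of 35 measured genes of 40 past 2-fold, 0 lower and a median log2 ratio of 3.18. Snap25, a plasma membrane SNARE protein, stood at 217 against 3.16 scaled FPKM, and the calcium sensors Syt13 and Syt7 at 138 against 2.36 and 149.7 against 5.63. Syp, which encodes the vesicle protein synaptophysin, stood at 122 against 2.64 scaled FPKM and Rimbp2, a scaffold of release sites, at 124 against 3.32. Cplx2, which encodes the SNARE-binding complexin 2, stood at 120.2 against 3.83 scaled FPKM. Unc13a, a priming factor (18.1 scaled FPKM), Syn1, which encodes synapsin I (16.6), and Doc2a (6.27) were listed at 0 in Ngn3-negative. Genes for exocytosis that other secretory cells share differed less: Sytl2 stood at 142 against 28.4 scaled FPKM, Vamp2 at 155 against 46.4, and Rab3d, a GTPase of exocrine granules, at 153 against 28.0. Bsn (2.45 against 2.20 scaled FPKM) and Cadps2 (20.9 against 16.6) were inside 2-fold.

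Genes of serotonin chemistry split by step. Of 19 listed genes 17 were measured, 14 were higher and 3 lower. Tph1, which catalyses the slowest step of making serotonin in the gut, stood at 2002 against 29.8 scaled FPKM, a log2 ratio of 6.02 (5.91 to 6.13). Slc18a1, the vesicular monoamine transporter, stood at 331 against 11.1 scaled FPKM and Gch1, which starts the synthesis of the enzyme's biopterin cofactor, at 125 against 19.1. Ddc, the decarboxylase of the next step, was abundant in both sorts, at 552 against 242 scaled FPKM. The 3 lower genes remove serotonin: the oxidases Maoa (94.8 against 439 scaled FPKM, log2 ratio -2.20, interval -2.24 to -2.16) and Maob (59.6 against 137, log2 ratio -1.19, interval -1.26 to -1.11), and the uptake transporter Slc6a4 (26.5 against 77.5, log2 ratio -1.51, interval -1.61 to -1.41).

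Transcription factors of the endocrine lineage were higher in 28 of 34 measured members of 39, and 0 were lower. Neurod1, a basic helix-loop-helix factor that acts after Neurogenin 3, stood at 605 against 11.2 scaled FPKM, a log2 ratio of 5.63 (5.48 to 5.78). Insm1, a zinc finger repressor, stood at 242 against 6.81 scaled FPKM, Celf3, an RNA-binding protein, at 246 against 6.90, and Rfx6 at 205 against 6.59. The homeobox factors Pax6 (114 against 3.09 scaled FPKM), Isl1 (147 against 3.23), Nkx2-2 (117 against 3.50) and Lmx1a (135 against 2.15) had log2 ratios between 4.71 and 5.44. Fev, a factor of serotonin-producing cells, stood at 169.7 against 2.55 scaled FPKM. Foxa1, a pioneer factor, stood at 174 against 22.2 scaled FPKM, a smaller log2 ratio of 2.92.

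A few factors of the same list did not follow. Pdx1, a homeobox factor of the duodenum and pancreas, stood at 22.5 against 15.2 scaled FPKM, a log2 ratio of 0.54 (0.31 to 0.77), and Nkx6-3 at 4.65 against 4.17. Mlxipl, a glucose-responsive factor, stood at 193 against 238 scaled FPKM, a log2 ratio of -0.30 (-0.40 to -0.19). All 3 lay within 2-fold.

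Factors that set intestinal identity as a whole fell on both sides. Of 29 such genes 28 were measured, 6 were higher, 5 lower and 17 within 2-fold, where 70.8% of all compared genes lay, and the median log2 ratio was -0.20. Cdx1 and Cdx2, the caudal homeobox factors of the intestine, stood at 216 against 216 and 217 against 217 scaled FPKM, with log2 ratios of 0.00 (-0.06 to 0.06) and 0.00 (-0.05 to 0.06). Elf3, an epithelial factor, stood at 512 against 514 scaled FPKM, and Hnf4a, a nuclear receptor of the epithelium, at 365 against 483. Its paralog Hnf4g stood at 110.3 against 397 scaled FPKM, a log2 ratio of -1.84 (-1.88 to -1.80), and Maf, a factor of villus enterocytes, at 27.8 against 132. On the other side, Onecut3 stood at 30.9 against 0.462 scaled FPKM.

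**Figure D3:**
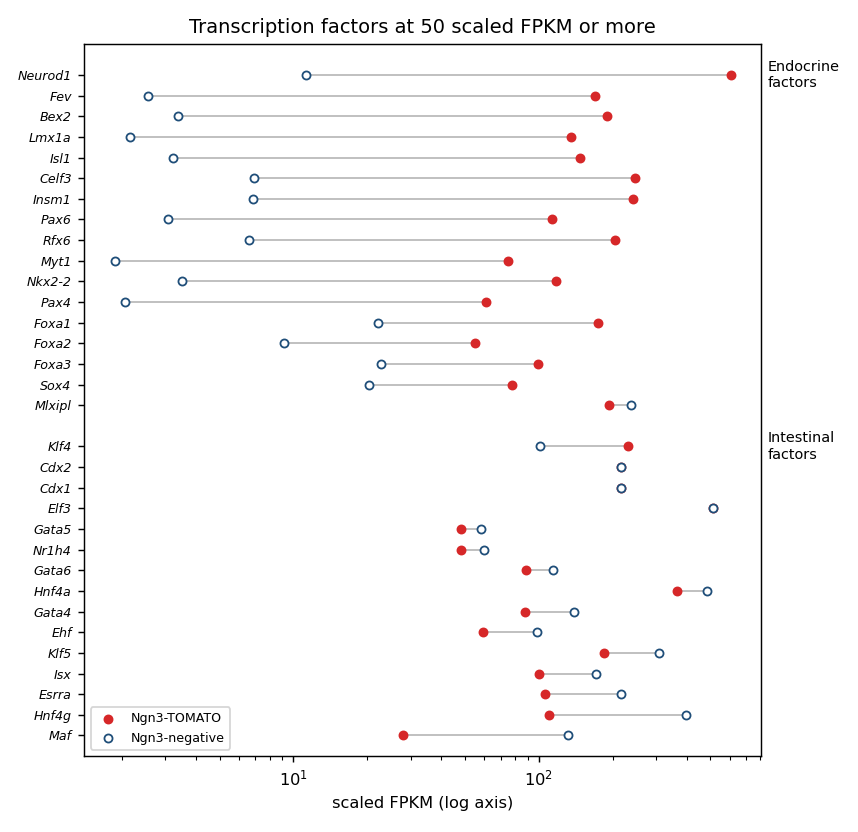
Each row is a gene of the endocrine (upper group) or intestinal (lower group) factor lists at 50 scaled FPKM or more in either library, except genes not reported here, with a dot for Ngn3-TOMATO and an open circle for Ngn3-negative at its scaled FPKM on a log axis. The endocrine factors from Neurod1 down to Foxa3 are far apart, whereas Cdx1, Cdx2 and Elf3 have both points on top of each other.

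Receptors for nutrients and for bile acids were mostly higher, with 10 of 15 measured genes of 20 past 2-fold and 3 lower. Ffar1, a receptor for long-chain fatty acids, stood at 64.9 against 1.70 scaled FPKM, and Ffar2, one for short-chain fatty acids, at 109 against 4.87. Gpr119, which responds to lipid amides, stood at 20.2 against 0.662 scaled FPKM and Casr, the calcium-sensing receptor, at 12.5 against 0.349. Gpbar1, the cell surface bile acid receptor, had 5.09 scaled FPKM in Ngn3-TOMATO and a listed 0 in Ngn3-negative. The 3 lower genes were transporters and a scavenger receptor of enterocytes: the glucose transporters Slc5a1 (236 against 1019.7 scaled FPKM) and Slc2a2 (34.8 against 211), and Cd36 (13.0 against 52.0).

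Receptors for hormones and transmitters were higher for 18 of 26 measured genes of 45, and 2 were lower. Somatostatin receptors led: Sstr1 stood at 195 against 3.54 scaled FPKM and Sstr5 at 76.7 against 1.14. Glp1r, the receptor of glucagon-like peptide 1, stood at 42.5 against 0.393 scaled FPKM, a log2 ratio of 4.96 (4.63 to 5.30), and Galr1, a galanin receptor, at 57.4 against 0.928. Insr, the insulin receptor, was even, at 29.8 against 27.7 scaled FPKM (chosen after its values were seen). The 2 lower genes were Vipr1, a receptor for the enteric peptide VIP (41.3 against 144 scaled FPKM, log2 ratio -1.77, interval -1.83 to -1.72), and the adenosine receptor Adora2b (1.09 against 9.29, log2 ratio -2.30, interval -2.64 to -1.97).

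Genes of channels that carry electrical activity were higher in most measured members. Of 52 calcium, sodium and other cation channel genes 35 were measured, 27 higher and 2 lower, with a median log2 ratio of 2.44. That median depended on how low values were handled: it was 1.03 at a pseudocount of 5, 1.19 with no filter and 4.11 with a filter at 10 scaled FPKM. The irritant-gated channel Trpa1 stood at 248 against 2.89 scaled FPKM, Trpm2 at 144 against 2.05 and Asic5, of the acid-sensing family, at 256 against 4.69. Scn3a, a voltage-gated sodium channel, stood at 63.8 against 1.14 scaled FPKM, and Cacna2d1, a subunit of voltage-gated calcium channels, at 87.8 against 1.94. By symbol, 10 of 26 genes of voltage-gated calcium channels were measured, and all 10 were at least 2-fold higher. The rest were below 1 scaled FPKM in both libraries. With no filter the median log2 ratio of this family was 0.90, where it was 2.53 with the filter. The 2 lower genes were Scn2b (3.02 against 8.16 scaled FPKM) and Trpv6, the calcium uptake channel of enterocytes (0.635 against 6.99). Trpm4 stood at 106 against 166 scaled FPKM, a log2 ratio of -0.65 (-0.76 to -0.54).

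Potassium channel genes were higher for 19 of 26 measured members of 47 and lower for 3. Kcnh6 stood at 113 against 3.31 scaled FPKM, Kcnk16, a background channel, at 68.7 against 0.789, and Abcc8, the sulfonylurea receptor of the ATP-sensitive channel, at 82.5 against 1.90. Its pore subunit Kcnj11 stood at 25.7 against 1.14 scaled FPKM (chosen after its values were seen). The 3 lower genes are known from salt and fluid transport in epithelia: Kcne3 (109 against 256 scaled FPKM), Kcnn4 (29.2 against 72.9) and Kcnk5 (14.0 against 57.9). The share of lower members, 3 of 26, was near the 9.94% of all genes. With no filter the median log2 ratio of this list was 0.44, where it was 2.19 with the filter.

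**Figure D4:**
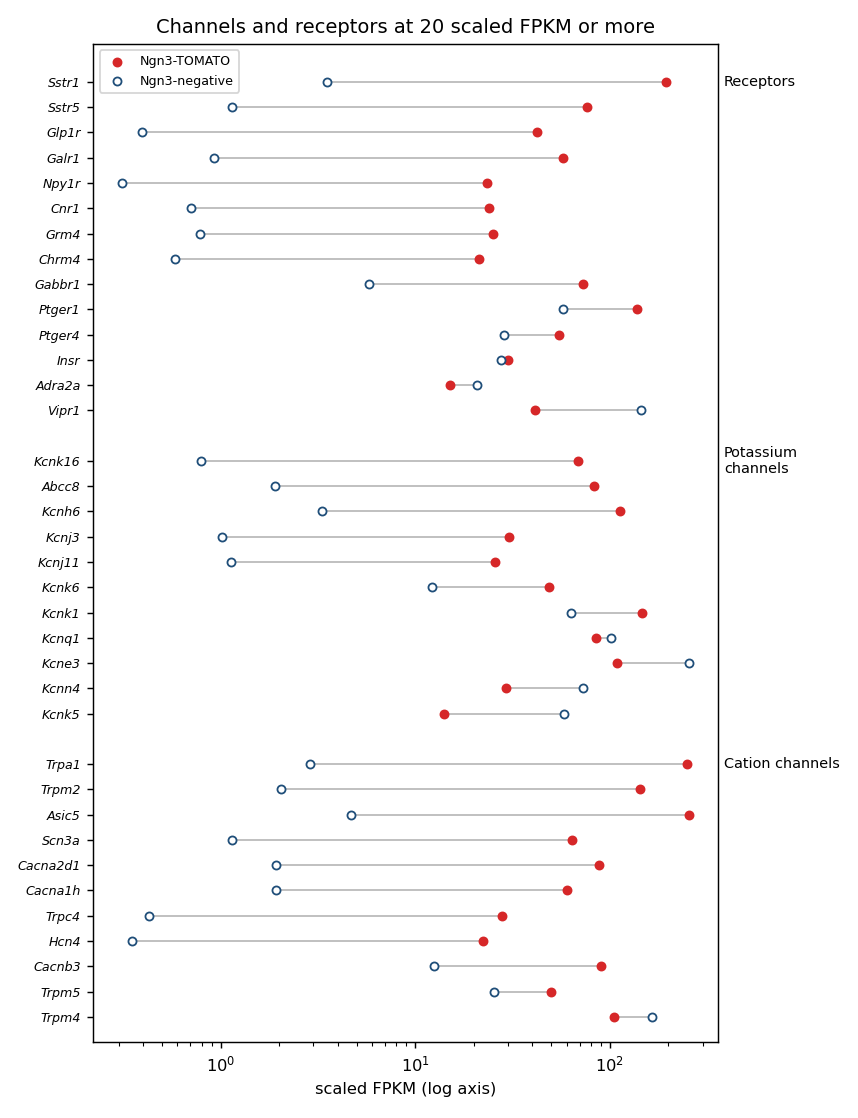
Each row is a channel or receptor gene at 20 scaled FPKM or more in either library and above 0.1 in both, with a dot for Ngn3-TOMATO and an open circle for Ngn3-negative at its scaled FPKM on a log axis. Most rows reach further right for Ngn3-TOMATO, and Kcne3, Kcnk5, Kcnn4 and Vipr1 among others reach further right for Ngn3-negative.

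Signalling genes downstream of receptors held further large differences. Of 16 measured regulators of G protein signalling 7 were higher and 1 lower, led by Rgs4 (151 against 3.37 scaled FPKM, log2 ratio 5.12, interval 4.91 to 5.34). Of 27 measured adenylyl cyclases and phosphodiesterases 10 were higher and 1 lower, with Adcy2, a cyclase, at 52.8 against 0.699 scaled FPKM. Rgs2, which damps Gq signalling, stood at 327 against 21.9 scaled FPKM.

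Genes best known from neurons were higher for 23 of 30 measured members of 51, with 1 lower. Rundc3a, an adaptor expressed in neurons and endocrine cells, stood at 183 against 15.3 scaled FPKM, Map1b, a microtubule-associated protein, at 31.8 against 0.607, and Kif1a, a motor that carries vesicles, at 15.7 against 0.214. Uchl1 (10.8 scaled FPKM), Ina (8.29) and Stmn3 (5.39) were listed at 0 in Ngn3-negative. Stmn1, which is tied to dividing cells, was the lower gene, at 5.94 against 14.9 scaled FPKM. Markers of enteric neurons and glia themselves were at or near 0: Sox10 was at 0 in both libraries and S100b stood at 0.233 against 0.0526 scaled FPKM. The 16 genes of the enteric neuron and glia list summed to 344 and 10.1 scaled FPKM, of which Snap25 alone gave 217 against 3.16, and Th (52.7 against 0.929 scaled FPKM) and Ret (56.6 against 1.35) gave most of the rest.

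Imprinted genes were higher for 11 of 22 measured members of 36, and 0 were lower. Peg3, a zinc finger gene expressed from the paternal copy, stood at 121 against 2.10 scaled FPKM, a log2 ratio of 5.30 (5.15 to 5.44). The noncoding Meg3 stood at 30.5 against 0.979 scaled FPKM, and Cdkn1c, a cell cycle inhibitor, at 99.5 against 7.84. Gnas, which encodes the stimulatory G protein subunit, was abundant in both sorts at 779 against 527 scaled FPKM, and Slc22a18 was even at 107 against 108.

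Genes of fetal liver and plasma proteins formed a further class with large differences: 15 of 18 measured members of 35 were higher, 0 were lower and the median log2 ratio was 3.30. With no filter on low values, which brings in the members near 0 in both libraries, that median was 0.55. Afp, which encodes alpha-fetoprotein (transcript uc008yba.2, chromosome 5, 90490714 to 90508907), stood at 1839 against 15.2 scaled FPKM, a log2 ratio of 6.82 (6.69 to 6.96), the largest ratio among genes at 100 or more that were above 0 in both libraries. Ambp stood at 893 against 9.69 scaled FPKM, Rbp4, the retinol carrier of plasma, at 488 against 9.05, and Ttr, which encodes transthyretin, at 170.3 against 19.9. The Serpina1 genes are close copies, and how reads were split among them is uncertain; Serpina1e stood at 215 against 3.27 scaled FPKM and Serpina1b at 116 against 9.64. Alb, which encodes albumin, stood at 41.9 against 0.246 scaled FPKM (chosen after its values were seen). Afp was thus the more abundant of the pair Afp and Alb.

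Goblet cell genes were higher for 30 of 38 measured members of 42, and 0 were lower, at a median log2 ratio of 1.83. They took up 16.7% against 3.78% of the summed gene values, a larger share than the hormone genes in both. Tff3, the trefoil peptide of mucus, stood at 58676 against 10301 scaled FPKM, a log2 ratio of 2.51 (2.49 to 2.53), and Clca1, a protease of mucus, at 4973 against 925. Atoh1, the factor that starts all secretory fates, stood at 95.7 against 26.9 scaled FPKM, a log2 ratio of 1.79 (1.67 to 1.92), and Spdef, which matures goblet cells, at 117 against 26.0, a log2 ratio of 2.12 (2.00 to 2.25). Agr3 was set apart from the others, at 203 against 15.6 scaled FPKM and a log2 ratio of 3.62 (3.37 to 3.87). Muc13, a membrane mucin that enterocytes also make, was even at 1136 against 1153 scaled FPKM. Fcgbp, a goblet gene, had too many reads for the authors' software to process and is not compared.

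Paneth cell genes were higher for 25 of 30 measured members of 36 and lower for 1, at a median log2 ratio of 2.41. Lyz1, the Paneth lysozyme, had a log2 ratio of 2.58 (2.55 to 2.60), Ang4, an antimicrobial ribonuclease, stood at 1128 against 207 scaled FPKM, and Mmp7, the protease that activates defensins, at 296 against 59.8. Because the defensin genes are close copies of each other, the value of any 1 of them is uncertain. The most abundant, Defa24, stood at 15638 against 2800.4 scaled FPKM. Wnt3, the niche signal of Paneth cells, stood at 39.9 against 2.24 scaled FPKM and Habp2 at 56.6 against 4.65, the highest log2 ratios of the list at 3.66 (3.43 to 3.88) and 3.35 (3.10 to 3.60). Sox9, a factor of crypt cells, was even at 23.2 against 27.5 scaled FPKM. Reg3g, an antimicrobial lectin that enterocytes also make, was the lower member, at 761 against 1868 scaled FPKM.

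Tuft cell genes differed least of the secretory classes. Of 28 measured members of 30, 7 were higher, where 19.2% of all genes were higher, and 0 were lower. The median log2 ratio was 0.86, just inside 2-fold, and 0.64 when both libraries were scaled to the same total. The tuft markers Dclk1 (30.1 against 14.6 scaled FPKM), Trpm5 (49.9 against 25.5) and Pou2f3 (12.5 against 6.53) had log2 ratios of 0.99 (0.88 to 1.09), 0.94 (0.81 to 1.08) and 0.84 (0.63 to 1.05), which did not differ beyond their counting intervals. Kctd12 stood apart at 241 against 41.6 scaled FPKM and a log2 ratio of 2.50 (2.45 to 2.56). Ltc4s, an enzyme of leukotriene synthesis, stood at 33.8 against 44.1 scaled FPKM.

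**Figure D5:**
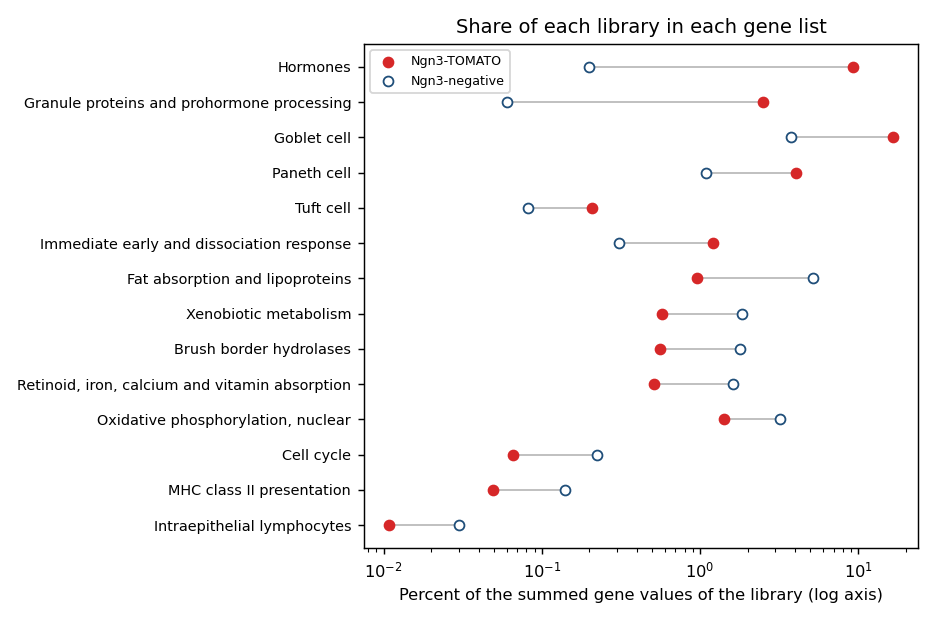
Each row is a gene list, with a dot for Ngn3-TOMATO and an open circle for Ngn3-negative at the percent of the summed gene values of the library that its members held, on a log axis. Goblet genes hold 16.7% of Ngn3-TOMATO against 3.78% of Ngn3-negative, hormones 9.24% against 0.199%, and fat absorption genes 0.961% against 5.18%.

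Absorptive genes made up the other side of the comparison. Of 35 brush border hydrolases and structural genes 34 were measured, 22 were lower and 2 higher, at a median log2 ratio of -1.49. Lct, the lactase of the brush border, stood at 67.9 against 503 scaled FPKM, a log2 ratio of -2.87 (-2.91 to -2.84). Alpi, the intestinal alkaline phosphatase, stood at 218 against 1424 scaled FPKM, and Ada, the adenosine deaminase, at 43.1 against 521. Structural genes of the microvillus differed less, with Vil1, which encodes villin, at 618 against 1350.1 scaled FPKM, Cdhr5, a protocadherin of microvillus tips, at 719.6 against 782 and Espn, which encodes espin, at 103 against 129. The 2 higher genes act on phosphate groups: Nt5e, the ecto-nucleotidase CD73 (247 against 30.6 scaled FPKM, log2 ratio 2.97, interval 2.89 to 3.05), and Alpl, the tissue-nonspecific alkaline phosphatase (15.7 against 0.429, log2 ratio 3.55, interval 3.29 to 3.81), whose intestinal relative was lower.

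Fat absorption genes were lower for 27 of 43 measured members and higher for 1. The lipoprotein genes Apoa4 and Apoa1 stood at 675 against 5508 and 1518 against 9581 scaled FPKM, with log2 ratios of -3.03 (-3.05 to -3.01) and -2.66 (-2.68 to -2.64). Mttp, which loads fat onto apolipoprotein B, stood at 222 against 1066 scaled FPKM and Dgat1, which makes triglyceride, at 319 against 1379. Creb3l3, a factor that drives apolipoprotein genes, stood at 65.7 against 435 scaled FPKM. The higher gene was Scarb1, a receptor for high-density lipoprotein, at 98.0 against 12.6 scaled FPKM and a log2 ratio of 2.86 (2.68 to 3.04).

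Transporters of sugars, amino acids and nucleosides were lower for 18 of 35 measured members of 37 and higher for 3. Slc5a1, which takes up glucose with sodium, had a log2 ratio of -2.10 (-2.13 to -2.08), and Slc7a9, an amino acid exchanger, stood at 63.7 against 288 scaled FPKM. Slc28a2, a nucleoside transporter, had the lowest log2 ratio of the list, -3.43 (-3.57 to -3.29), at 5.65 against 70.6 scaled FPKM. Slc6a19, the main neutral amino acid carrier, was within 2-fold at 276 against 305 scaled FPKM. The 3 higher genes were Slc29a1, a nucleoside carrier that works in both directions (147 against 33.5 scaled FPKM), Slc43a1 (3.83 against 0.371), and Slc2a1, the glucose carrier of most cells (50.1 against 17.3).

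Genes for vitamin, iron and calcium uptake were lower for 17 of 31 measured members of 35. S100g, the calcium-binding protein calbindin of enterocytes, stood at 157 against 1181 scaled FPKM, a log2 ratio of -2.90 (-3.02 to -2.79), and Rbp2, which binds retinol in the cell, at 1149 against 4717. Fth1, the ferritin heavy chain, stood at 1677 against 4439 scaled FPKM. The 3 higher genes included Rbp4, already given, and Bco1, which cleaves beta-carotene (33.1 against 3.19 scaled FPKM). Genes of xenobiotic metabolism were lower for 38 of 51 measured members of 54 and higher for 0. Cyp3a11, a drug-metabolizing oxidase, stood at 88.4 against 513 scaled FPKM, Cyp2b10 at 48.4 against 339, and Ces2e, a carboxylesterase, at 209 against 991.

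Genes tied to zones of the villus did not move as 1 block. Of 22 measured villus tip genes 8 were higher and 10 lower. The lower ones included Clca4b (68.6 against 485 scaled FPKM) and Slc28a2, and the higher ones the immediate early genes Atf3 (728 against 89.3 scaled FPKM) and Fos (2021 against 521), and Nt5e. Of 24 genes of the villus base, all measured, 17 were lower and 1 was higher. Among the lower ones were the antimicrobial Reg3b (968 against 3179.9 scaled FPKM) and Ccl25, a chemokine that attracts lymphocytes (253 against 1031).

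Of 31 measured junction and keratin genes, which give structure to all epithelial cells, 5 were higher, 3 lower and 23 within 2-fold, a share near the 70.8% of all compared genes. Epcam, an adhesion protein of epithelia, stood at 1313 against 1730.4 scaled FPKM, Cdh1, which encodes E-cadherin, at 487 against 442 and Krt8 at 1381 against 1264. Against these even levels, Cldn4, a sealing claudin, stood at 1428 against 140.0 scaled FPKM, a log2 ratio of 3.34 (3.29 to 3.40), and Krt7 at 1142 against 125, a log2 ratio of 3.18 (3.12 to 3.24). Krt18, the partner of Krt8 in filaments, stood at 1291 against 407 scaled FPKM. Cldn15, a pore-forming claudin, was lower at 289 against 708 scaled FPKM.

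Proliferation genes were lower almost as a block. Of 43 cell cycle genes, all measured, 42 were at least 2-fold lower and 0 higher, at a median log2 ratio of -1.42. Top2a, the topoisomerase of dividing cells, stood at 38.3 against 118 scaled FPKM, a log2 ratio of -1.59 (-1.66 to -1.52), Ube2c, of the anaphase machinery, at 46.2 against 124, and Ccna2, which encodes cyclin A2, at 35.6 against 105. Tk1 and Gins2 were listed at 0 in Ngn3-TOMATO and stood at 73.0 and 36.6 scaled FPKM in Ngn3-negative. The gene inside 2-fold was Kif20a (13.6 against 26.0 scaled FPKM, log2 ratio -0.89, interval -1.02 to -0.77). Of 18 measured genes on the list of cycle inhibitors 2 were lower. They were Cdkn2c (9.23 against 21.7 scaled FPKM) and Hes1 (39.2 against 93.3), which is on the list but is a target of the Notch pathway. Another 5 were higher, where 19.2% of all genes were higher: Cdkn1c, given above, Gadd45g (178 against 23 scaled FPKM), Btg2 (704 against 95.6), Cdkn1a, which encodes p21 (523 against 167), and Gadd45b (103 against 32.5). Stem cell genes were mixed, with 4 of 31 measured higher and 6 lower; Lgr5, the receptor that marks crypt stem cells, stood at 12.1 against 21.3 scaled FPKM, and Olfm4 at 1033 against 2641.

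Notch is the pathway by which neighbours choose between secretory and absorptive fates. Of 24 measured genes of the pathway list of 30, 7 were higher, 2 were lower and 15 lay within 2-fold. Of all genes 19.2% were higher and 9.94% lower, so the share of lower members was near that of all genes. The median log2 ratio of the list was 0.40. The ligand genes Dll4 and Jag2 stood at 99.8 against 12.8 and 23.5 against 2.03 scaled FPKM, with log2 ratios of 2.87 (2.75 to 2.99) and 3.01 (2.81 to 3.22), whereas the ligand Dll1 was inside 2-fold at 58.3 against 39.7 (chosen after its values were seen). The 2 lower genes were the targets Hes1 and Nrarp, which stood at 39.2 against 93.3 and 19.4 against 44.3 scaled FPKM, with log2 ratios of -1.23 (-1.36 to -1.10) and -1.15 (-1.28 to -1.01). Mfng, a sugar transferase that modifies Notch, stood at 9.52 against 0.484 scaled FPKM.

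Signals of the BMP, TGF-beta, Wnt and Hedgehog pathways were higher for 8 of 20 measured genes of 33 and lower for 3. The BMP targets Id1, Id2 and Id3, inhibitors of basic helix-loop-helix factors, stood at 677 against 266, 568 against 87.6 and 722 against 221 scaled FPKM, with log2 ratios of 1.34 (1.28 to 1.41), 2.68 (2.59 to 2.77) and 1.71 (1.64 to 1.78). Tgfb1, a secreted growth factor, stood at 17.9 against 1.10 scaled FPKM. Tgfbi, a matrix protein, was lower at 23.7 against 121 scaled FPKM, and Fzd5, a Wnt receptor, at 39.9 against 94.5. Bmp8b was listed at 0 in Ngn3-TOMATO and stood at 1.87 scaled FPKM in Ngn3-negative.

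Both lists of energy genes had median log2 ratios below 0 and inside 2-fold. Of 38 nuclear genes of oxidative phosphorylation, all measured, 16 were past 2-fold lower and 0 higher, at a median log2 ratio of -0.93. Atp5b, of the ATP synthase, stood at 1408 against 2923 scaled FPKM, and Sdhb, of succinate dehydrogenase, at 229.9 against 570.4. Of 33 measured genes of glycolysis and pyruvate use, 12 were lower and 5 higher, at a median log2 ratio of -0.68. The lower ones included Khk, the first enzyme of fructose use, at 151 against 593 scaled FPKM. The higher ones included the hexokinases Hk1 (22.1 against 3.57 scaled FPKM) and Hk2 (63.8 against 14.7). Pdk3, a kinase that limits pyruvate oxidation, stood at 137 against 37.0 scaled FPKM.

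Ribosomal protein genes lay within 2-fold for 35 of 36 measured members, with a median log2 ratio of -0.63, below the median of all genes. Genes for protein folding in the endoplasmic reticulum lay within 2-fold for 35 of 38, and 3 were higher. Their median log2 ratio of 0.18 changed sign to -0.06 when the libraries were scaled to the same total. The 3 higher genes were sensors of unfolded protein: Ern2, of goblet cells (79.2 against 19.9 scaled FPKM), Atf6 (71.6 against 22.4) and Eif2ak3 (40.6 against 19.5). Hspa5, the main chaperone there, stood at 1029.7 against 576 scaled FPKM. V-type ATPase genes were higher for 3 of 17 measured, a share near the 19.2% of all genes, and lower for 0, led by Atp6v1b2 (371 against 81.1 scaled FPKM, log2 ratio 2.18, interval 2.12 to 2.24).

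Immediate early genes, which respond quickly to stimulation and to handling of tissue, were higher for 28 of 35 measured members of 37 and lower for 1. Egr1 stood at 1208 against 153 scaled FPKM, Dusp1, a phosphatase of MAP kinases, at 613 against 53.8, and Nr4a1 at 428 against 14.3. Fos and Jun stood at 2021 against 521 and 981 against 243 scaled FPKM. The lower gene was Myc, at 32.6 against 66.3 scaled FPKM. The heat shock genes on the list differed less, with Dnajb1 at 232 against 78.7 scaled FPKM and Hspa1b at 42.7 against 21.4 (the latter chosen after its values were seen).

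Class II antigen presentation genes were nearly all lower. Of 9 measured class II genes of 12, 8 were at least 2-fold lower, the median member being 4.01-fold lower. Cd74, the invariant chain, stood at 63.7 against 321 scaled FPKM and H2-Aa at 16.9 against 99.3. B2m, the light chain of class I, stood at 1181 against 3323 scaled FPKM, and the class I gene H2-D1 was even at 516 against 536. Genes of intraepithelial lymphocytes, which sit among enterocytes, moved with these: 8 of 20 measured of 24 were lower and 0 higher, and the list summed to 115 against 268 scaled FPKM, with 0 members at 0 in either library. Gzma, a granzyme of cytotoxic lymphocytes, stood at 36.0 against 94.2 scaled FPKM, although Ptprc, which encodes CD45, was even at 3.68 against 3.72. The part of lymphocytes in the class II values was not tested.

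Genes of immune and stromal cells were mostly low in both libraries. B and plasma cell genes summed to 6.04 and 8.52 scaled FPKM and myeloid genes to 39.2 and 32.6, with 12 of 20 myeloid genes below the filter in both libraries. C1qa, a complement gene of macrophages, stood at 10.7 against 0.0833 scaled FPKM, while the macrophage markers Adgre1 and Csf1r stood at 0 against 0.104 and 0.0889 against 0.0773. The stromal and endothelial list summed to 311 and 15.1 scaled FPKM, of which Vim, which encodes vimentin, gave 296 against 7.96; Col1a1 stood at 0.0283 against 0.0892, Pdgfra at 0 against 0.0508 and the endothelial Cdh5 at 0 against 0.0588. Pecam1, an adhesion protein of endothelium, went the other way at 9.66 against 0.341 scaled FPKM, a log2 ratio of 2.99 (2.75 to 3.23). Haemoglobin genes, near-identical in pairs, were higher in Ngn3-negative, with Hbb-bs at 44.9 against 155 scaled FPKM. Genes of pancreatic acinar cells summed to 2028 and 3284 scaled FPKM, of which Reg1, a secreted lectin, gave 623 against 2635 and Clps, which encodes colipase, 1110.4 against 227. They were lower for 14 of 21 measured of 28 and higher for 2, Clps and Pnliprp2 (144 against 28.2 scaled FPKM). Cela2a was listed at 0 in Ngn3-TOMATO and stood at 54.6 scaled FPKM, and Ctrb1 stood at 3.09 against 53.7. Stomach genes divided, with Pgc, a pepsinogen, at 161 against 8.78 scaled FPKM and Ctse, an aspartic protease, at 35.6 against 7.64, but Gkn2 at 8.82 against 74.5 and Tff1 at 16.5 against 101.

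Beyond the lists, the highest log2 ratios included Reg4, a lectin of secretory cells, at 12154 against 181 scaled FPKM and a log2 ratio of 6.06 (6.00 to 6.12), as abundant as the granin Chgb. Gpx3, a secreted glutathione peroxidase, stood at 939.8 against 14.3 scaled FPKM, Prnp, which encodes the prion protein, at 401 against 7.24, and Amigo2, an adhesion protein, at 318 against 4.77. Slc38a11, an amino acid transporter, stood at 167 against 3.04 scaled FPKM and Tpbg, a membrane glycoprotein, at 270.0 against 5.42. Ins2, which encodes insulin (transcript uc009koh.2, chromosome 7, 142678656 to 142679708), reached 55.4 scaled FPKM in Ngn3-TOMATO, with a listed 0 in the other library. All 20 genes with the lowest log2 ratios off the lists were listed at 0 in Ngn3-TOMATO, among them Dnase1 (232 scaled FPKM in Ngn3-negative) and Chchd1 (159).

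A listed 0 did not always mean a silent gene. At 10 scaled FPKM or more in the other library, 33 genes were listed at 0 in Ngn3-TOMATO and 54 in Ngn3-negative, and they included Rpl31, a ribosomal protein gene (27.2 scaled FPKM in Ngn3-negative), and Yars, a transfer RNA synthetase gene (39.2 in Ngn3-TOMATO), which every cell uses. Overlapping models were listed with opposite zeros: Bace1, a protease, stood at 74.0 against 0 scaled FPKM, and Gm16536, which overlaps it, at 0 against 42.3. Gm10680, at 0 against 2409 scaled FPKM, overlaps Apoa4. No fold is given for such genes.

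Within genes, the main transcript could differ between the 2 libraries. There were 5511 genes at 10 scaled FPKM or more in both libraries with several measured transcripts. Changes in which a leading transcript held less than 60% of the gene in either library were not counted. A change that met this limit occurred in 132 of the 5511 genes. In 109 of these the limits of both transcripts were apart and all transcripts of the gene had status OK in both libraries. In 42 of the 109 the 2 models differed in length by 5 bases or less, as in Sdcbp, an adaptor protein gene, where a model of 2550 bases held all of the gene in Ngn3-TOMATO and one of 2553 bases all of it in Ngn3-negative. Longer differences occurred in Snrnp70, a splicing factor gene, where the model of 2999 bases held 61.7% in Ngn3-TOMATO and the one of 1639 bases 63.2% in Ngn3-negative. In Rundc3a the model of 2430 bases held 63.6% in Ngn3-TOMATO, and the one of 1727 bases 80.2% in Ngn3-negative. In Chd3, a chromatin remodeller gene, the model of 6168 bases held all of the gene in Ngn3-TOMATO and one of 669 bases 72.9% in Ngn3-negative. These splits rest on how Cufflinks shared reads among overlapping models, and each is uncertain.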

How the data were processed

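Polyadenylated RNA of 2 sorted populations, Ngn3-TOMATO and Ngn3-negative, was read as 1 pooled library each, at depths of 1380 and 1030 Mb of aligned bases, taken as coverage times length. FastQC, TopHat 1.5.0, Cufflinks and the mm10 genome are named in the submitters' processing notes, without a Cufflinks version. The authors' files give, per the file headers, 59120 UCSC transcript models with length, coverage (mean read depth for each base), FPKM, lower and upper limits of the FPKM, and a status. The FPKM sums were near 1e+10 in each library, so its library term is not the usual one, and the term used is not stated in the labels or headers. In each library FPKM equalled coverage times 1 constant.

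Gene symbols came from GENCODE M21 by matching transcript ends and overlap, regardless of strand, and 52505 received a symbol. Transcripts without one held 0.607% of the read bases of Ngn3-TOMATO and 0.787% of Ngn3-negative. Models under 200 bases, which held 15.8% and 20.3% of the summed FPKM, mitochondrial genes, and genes with a transcript that had too many reads to process (Fcgbp, Gm10925, Gm26917 and Myo3a) were left out. The remaining FPKM were summed for each symbol and divided by 8179, common to all libraries (scaled FPKM). Genes at 1 scaled FPKM or more in either library were compared after a pseudocount of 1, with 95% intervals from the deposited limits taken as 2 standard errors. The arithmetic of the interval and the calls was checked on simulated gene counts, with errors set by the simulation. The deposited limits and the sharing of reads among transcripts were not part of that check. With 1 library in each group no test was possible. Coordinates are 1-based on mm10 and are those of a gene's leading transcript. For 333 compared genes a transcript had a status other than OK in 1 of the libraries, and none of these is named. RefSeq promoter windows are of GRCm38.p6.

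The 46 gene lists, the 32 symbol families, the promoter sequences searched and the members were chosen with earlier results of these data known. Some list symbols were corrected, and Zg16 was taken off the pancreatic acinar and villus base lists, after the files were read. The overlap needed for a symbol was likewise lowered, to 0.15. Genes were named where they are markers, reached 100 scaled FPKM on a list or family, had its 4 highest or 4 lowest log2 ratios, were listed at 0 in 1 library, or were among the 20 highest or lowest log2 ratios off the lists, the 20 most abundant genes of a library, or the 10 most abundant with a change of transcript. Some genes that the rule names are not reported here, though the counts and medians of their lists include them. Alternatives changed the pseudocount, the filter, the scaling, the transcript length limit, the transcript taken, the matching and the status required. Python 3.11.15, pandas 2.3.3, numpy 2.4.6 and matplotlib 3.10.9 were used.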

Additional observations from a re-analysis of the deposited data

How the results depend on the processing

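Counts of genes past a fold moved mostly with how low values were handled. Adding 5 scaled FPKM in place of 1 gave 1501 genes at least 2-fold higher instead of 2594, 546 at least 4-fold higher instead of 1196, and 155 at least 4-fold lower instead of 256. With a pseudocount of 0.1 genes at least 4-fold higher numbered 1866, and with a filter at 10 scaled FPKM those at least 2-fold higher numbered 1485. Every other count stayed within 1.5 times of its main value, and the largest of these moves among 2-fold lower genes was from 1340 to 1991, at equal totals. The share of 2-fold differences that were higher was 65.9% as deposited, 64.7% with scaling by the median ratio and 53.4% at equal totals. Of 78 lists and families, 34 had a median past 2-fold, 21 of these stayed past it under every alternative run, and 0 of them changed direction. The other 13 came inside 2-fold under some alternative. With no filter these were hormone and transmitter receptors, potassium channels on the list and by symbol, voltage-gated calcium channels by symbol, neuron genes, enteric neurons and glia, gastric genes, fetal and plasma proteins, adhesion receptors, serpins and Hox genes. With a pseudocount of 5 they included sugar and amino acid transporters and synaptotagmins. Medians inside 2-fold that changed sign were those of endoplasmic reticulum genes and of interleukins (equal totals), myeloid genes (most abundant transcript), stroma, solute carriers, ATP-binding cassette transporters and cytochrome P450 genes (no filter), and claudins (no filter, and filter at 10). Keeping only transcripts with status OK in both libraries was chosen after seeing the data. No paired analysis was possible because each group is 1 pooled library, and for the same reason no replicate could be left out. Genes near 1 scaled FPKM rest on few reads, and a listed 0 gives no limit on the level.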
